A study of Homo sapiens with 9 samples.

Results

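Chemokines are small secreted proteins that guide leukocytes along a concentration gradient, and airway epithelial cells are among their sources. This account concerns 7 of them, measured as messenger RNA in A549 cells, a human lung adenocarcinoma line: the CXC chemokines CXCL8, CXCL1, CXCL2, CXCL3 and CXCL5, and the CC chemokines CCL2 and CCL20. The members are listed by name, with no threshold on their values, and were picked with earlier results of these data known. Their probe sets are those annotated to exactly 1 of these genes, which gave 12 of the 54675 probe sets and 7 of the 19775 genes with a probe set of their own. The 9 Affymetrix arrays form 3 groups of 3. The si-Ctrl cells carried a control oligo, the si-Med23 cells an RNA interference oligo against MED23, a subunit of Mediator, the complex between transcription factors and RNA polymerase II, and the si-Elk1 cells an oligo against ELK1, an ETS family transcription factor that binds with serum response factor and is known to act through MED23. The cells of all 9 samples were grown in serum-containing medium under the same normal conditions, with no further treatment. The replicates of a knockdown are 3 cell lines with 3 different oligos, called A, B and C here, and each oligo has 1 array, so that an oligo and its array cannot be told apart. Nothing says that the si-Ctrl replicates came from separate cultures, and p-values measure only the spread between these arrays.

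CXCL8 (interleukin-8), CXCL1, CXCL2, CXCL3 and CXCL5 carry the glutamate-leucine-arginine motif before their first cysteines, bind CXCR2 (CXCL8 also CXCR1) and draw neutrophils. CCL2 acts on CCR2 and draws monocytes, and CCL20 acts on CCR6 of dendritic cells and lymphocytes. In epithelial cells their transcription is known to be switched on by NF-kB, often with AP-1 and C/EBP factors, after interleukin-1 or tumour necrosis factor, and their messenger RNAs are short-lived through AU-rich elements.

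The stretch in each promoter that resembles a site for NF-kB is shown here because it is what most members share in sequence and because NF-kB is the factor their induction is best known for. Sequences are from RefSeq, assembly GRCh38.p14, written 5′ to 3′ on the gene's own strand, with 25 bases on each side of the run in capitals. The capitals mark GGAATTTCC in the CXC genes and, in CCL20, the overlapping matches to the looser pattern of GGG, any 5 bases and CC.
CXCL8, chr4:73740453-73740511, plus strand: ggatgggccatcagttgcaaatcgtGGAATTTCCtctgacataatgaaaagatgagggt
CXCL1, chr4:73869290-73869348, plus strand: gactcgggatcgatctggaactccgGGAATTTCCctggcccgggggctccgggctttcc
CXCL2, chr4:74099239-74099297, minus strand: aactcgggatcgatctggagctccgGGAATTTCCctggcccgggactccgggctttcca
CXCL3, chr4:74038734-74038792, minus strand: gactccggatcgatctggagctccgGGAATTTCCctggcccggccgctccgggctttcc
CXCL5, chr4:73998734-73998792, minus strand: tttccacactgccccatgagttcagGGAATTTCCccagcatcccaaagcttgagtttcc
CCL20, chr2:227813736-227813797, plus strand: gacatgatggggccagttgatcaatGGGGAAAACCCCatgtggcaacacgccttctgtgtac

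Promoters were taken as the 250 bases before and 50 bases after the annotated start, and 6 members had one; CCL2 is named only. GGAATTTCC, searched on both strands, lay in 5 of these 6 promoters and in 0.461% of the 35116 promoters of that length. It began 91 bases before the start in CXCL8, 90 in CXCL5, 78 in CXCL1 and CXCL3, and 77 in CXCL2. The looser pattern, searched on both strands as well, was found in all 6 but also in 58.668% of all promoters, so its presence separates nothing. In CCL20 the run in capitals began 81 bases before the start. TGANTCA, the AP-1 pattern, was found in CXCL8 alone among the members, 137 bases before the start, and in 7.709% of all promoters. CCGGAAG, a pattern of ETS factors such as ELK1, was found in CXCL1 alone, against 10.26% of all promoters, and the CArG box, the pattern of serum response factor, matched none of the 6, against 1.293% of all. TATAAA was found in CXCL8 and CCL20 (11.53% of all promoters) and GGGCGG, the GC box, in CXCL1 and CXCL3 (44.954% of all). GGAATTTCC lies within some matches of the looser pattern, and a GGGCGG of CXCL1 and of CXCL3 does as well. Aligned over their whole length, the CXCL1 and CXCL3 promoters were 82.47% identical, CXCL2 was 72.08% identical to CXCL1 and 73.82% to CXCL3, and CXCL5 between 51.22% and 52.63% to these 3. CXCL8 was between 42.59% and 47.69% identical to the other 5.

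Signals are given as log2(value + 1) of the deposited probe set signal. The brightest probe set by mean over the 9 arrays stands for each gene, and genes with a mean under log2 6.05 were left out, which left 12616. A gene is said to have risen or fallen where limma's p, adjusted by Benjamini-Hochberg over those genes, was under 0.05. The ± after a log2 fold change is its standard error, with n = 3 arrays a group. By their brightest probe sets, both targeted transcripts were lower on all 3 arrays of their knockdown. MED23 was 9.27, 9.05 and 9.08 on the si-Ctrl arrays and 6.79, 6.19 and 7.06 with oligos A, B and C, a fall to 18.2% of the control (limma, adjusted p = 0.0230 over all probe sets). The other MED23 probe sets, each under the filter level on some arrays, gave log2 fold changes from -3.44 (limma, adjusted p = 0.0351 over all probe sets) to -0.76 (0.646). The amount of MED23 left thus depends on the probe set. ELK1 was 9.36, 9.61 and 9.29 in si-Ctrl and 7.07, 7.15 and 7.83 in si-Elk1, which leaves 23.8%, with a limma adjusted p of 0.0728 over all probe sets and 0.00684 over the 12616 genes. The other ELK1 probe set above the filter level fell less: it was 8.41, 8.39 and 8.52 in si-Ctrl and 7.47, 7.17 and 7.44 in si-Elk1, a log2 fold change of -1.08 (limma, adjusted p = 0.259 over all probe sets), so that the amount of ELK1 left depends on the probe set. Median signals ran from 64.9 to 88.2 over the arrays. The poly-A spikes, bacterial transcripts that are usually added to the RNA before labelling, were brighter on the knockdown arrays: they averaged log2 7.43 to 7.82 in si-Ctrl, 7.92 to 8.46 in si-Elk1 and 9.08 to 9.31 in si-Med23. The amount added to each RNA is not stated in the labels, and their part in the results was not tested. Scaled on them, every log2 fold change falls by 1.61 in si-Med23 against si-Ctrl and by 0.64 in si-Elk1 against si-Ctrl. All directions below hold on the deposited scaling, and the plot of 5 ways of scaling shows what the others give.

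In si-Med23 against si-Ctrl all 7 chemokine genes rose, from 1.44-fold (CXCL5) to 4.57-fold (CCL20), with a median log2 fold change of 1.84 against 0.09 over all 12616 genes. Of all genes, 20.3% rose and 19.5% fell in this comparison. In si-Elk1 against si-Ctrl, where 3.07% of genes rose and 1.19% fell, CCL20 rose, CCL2 fell, and 5 members did not pass the test. Between the knockdowns, which share no array, 4 members were higher in si-Med23 than in si-Elk1 (CXCL8, CXCL1, CXCL2 and CCL2) and 3 did not pass, against 9.54% of all genes higher and 12.2% lower. In RNA of whole cultures, more cells with a message and more message per cell cannot be told apart. The 2 comparisons with si-Ctrl share their control arrays, so that their values are set side by side only.

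**Figure D1:**
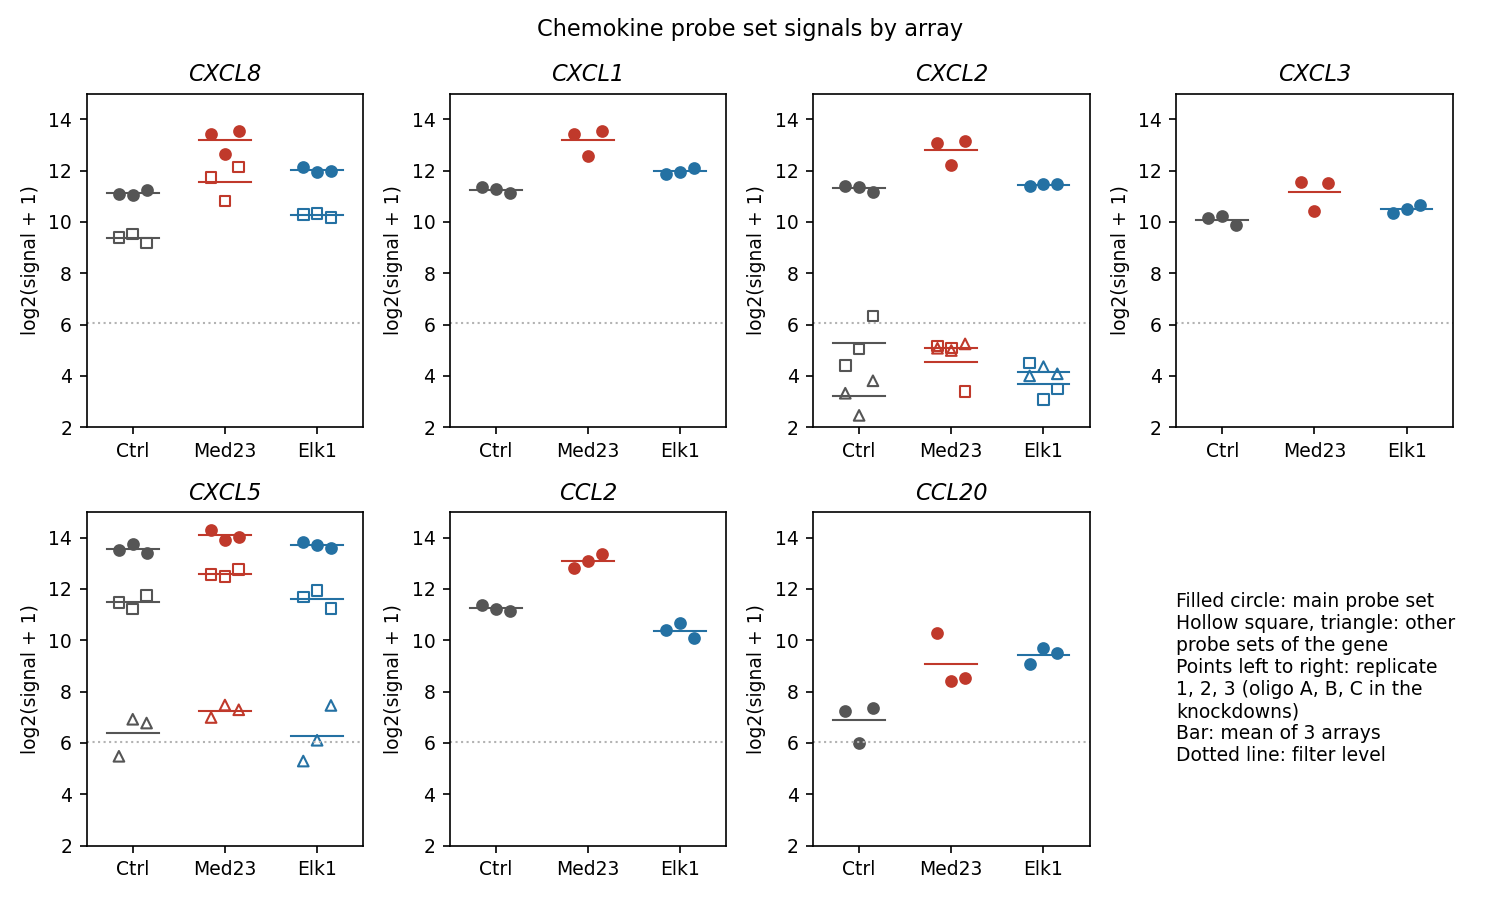
Signal of each chemokine probe set, log2(signal + 1), on the 9 arrays by group. Filled circles are the probe set that represents the gene, hollow squares and triangles its other probe sets, bars the mean of 3 arrays, and the dotted line the filter level of log2 6.05. The si-Med23 circles lie above all si-Ctrl circles in each of the 7 panels, the si-Elk1 circles of CCL2 lie below them, and those of CCL20 above them.

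CXCL8, the founding neutrophil attractant, was 11.08, 11.06 and 11.24 in si-Ctrl, 13.42, 12.62 and 13.54 in si-Med23 and 12.15, 11.95 and 11.99 in si-Elk1. The 3 groups did not overlap, with si-Elk1 between the other groups. Its log2 fold change in si-Med23 was 2.07 ± 0.22, which is 4.19-fold (limma, adjusted p = 0.00184) and rank 40 of the rises among 12616 genes. In si-Elk1 it was 0.90, with a 95% interval of 0.39 to 1.41 and an adjusted p of 0.0587 by limma, which misses the threshold. Its level in si-Med23 exceeded that in si-Elk1 by 1.17 on the log2 scale (limma, adjusted p = 0.0129).

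CXCL1, which shares CXCR2 with CXCL8, was 11.38, 11.28 and 11.11 in si-Ctrl, 13.41, 12.55 and 13.56 in si-Med23 and 11.87, 11.95 and 12.09 in si-Elk1. The order of the groups was the one seen for CXCL8, again with no overlap. It rose 3.78-fold in si-Med23, a log2 fold change of 1.92 ± 0.24 (limma, adjusted p = 0.00202), and stood at 0.72 in si-Elk1 (limma, adjusted p = 0.116). The knockdowns differed by 1.20 (limma, adjusted p = 0.0148), a call that is lost without si-Elk1 oligo A (adjusted p = 0.0552) or oligo B (0.0507).

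CXCL2, a close relative of CXCL1 in protein and promoter, was 11.41, 11.36 and 11.18 in si-Ctrl, 13.09, 12.20 and 13.15 in si-Med23 and 11.40, 11.46 and 11.47 in si-Elk1. Here the si-Elk1 arrays overlapped the controls, and si-Med23 lay above both. The rise in si-Med23 was 2.82-fold, or 1.50 ± 0.23 on the log2 scale (limma, adjusted p = 0.00297). In si-Elk1 the log2 fold change was 0.13, with a 95% interval from -0.41 to 0.66, and the knockdowns differed by 1.37 (limma, adjusted p = 0.00949).

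CXCL3, whose promoter is the nearest to that of CXCL1, was 10.14, 10.22 and 9.87 in si-Ctrl, 11.54, 10.43 and 11.52 in si-Med23 and 10.36, 10.50 and 10.65 in si-Elk1. With oligo B the signal lay only just above the highest control, and within the range of the si-Elk1 arrays. Its rise in si-Med23 was 2.12-fold, or 1.09 ± 0.28 (limma, adjusted p = 0.0168). The call is lost without si-Ctrl replicate 3 (adjusted p = 0.0604), oligo A (0.0540) or oligo C (0.0541). Against si-Elk1 the difference was 0.66 (limma, adjusted p = 0.119), which becomes 1.02 and passes when oligo B is left out (adjusted p = 0.0150).

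CXCL5, another CXCR2 ligand and one made by epithelial cells, had the smallest rise of the 7 by its brightest probe set. That probe set probe set was 13.52, 13.77 and 13.40 in si-Ctrl, 14.31, 13.92 and 14.03 in si-Med23 and 13.83, 13.72 and 13.58 in si-Elk1. The si-Med23 values lay above all others, with oligo B only narrowly above the nearest si-Elk1 array. The log2 fold change in si-Med23 was 0.53 ± 0.15, or 1.44-fold (limma, adjusted p = 0.0238), and in si-Elk1 0.15, with a 95% interval from -0.20 to 0.49. The call in si-Med23 is lost without si-Ctrl replicate 1 (adjusted p = 0.0701), si-Ctrl replicate 3 (0.0883) or oligo A (0.0724), and with no filter (0.0620), quantile normalization (0.128) or scaling on hybridization controls (0.891).

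CCL2, the monocyte attractant, was the member that moved in opposite directions. It was 11.40, 11.21 and 11.16 in si-Ctrl, 12.83, 13.09 and 13.38 in si-Med23 and 10.39, 10.66 and 10.08 in si-Elk1. The 3 groups stood apart, with si-Med23 above and si-Elk1 below the controls. It rose 3.59-fold in si-Med23, 1.84 ± 0.19 on the log2 scale (limma, adjusted p = 0.00184). In si-Elk1 it fell to 0.544 of the control, a log2 fold change of -0.88 ± 0.19 (limma, adjusted p = 0.0403). Its difference between the knockdowns, tested directly, was 2.72 ± 0.19 or 6.60-fold (limma, adjusted p = 0.000978), rank 8 among the 12616 genes.

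CCL20, the CCR6 ligand, was the member with the widest spread within a group. It was 7.25, 6.02 and 7.37 in si-Ctrl, 10.29, 8.40 and 8.52 in si-Med23 and 9.08, 9.70 and 9.50 in si-Elk1. All 6 knockdown arrays lay above the controls, 1 of which was below the filter level, and the 2 knockdowns overlapped. It rose 4.57-fold in si-Med23 (log2 2.19 ± 0.53, limma adjusted p = 0.0130) and 5.86-fold in si-Elk1 (2.55 ± 0.53, limma adjusted p = 0.0384), rank 27 and rank 15 of the rises. The size in si-Med23 rests on single arrays: the log2 fold change was 1.58 without oligo A (limma, adjusted p = 0.0237), less than the 1.95 of CXCL8 in that setting, and 1.76 without si-Ctrl replicate 2 (0.0396). Between the knockdowns the difference was -0.36, with a 95% interval from -1.57 to 0.86, which holds 0 and leaves room for a difference either way.

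Both calls in si-Elk1 stood close to the threshold. The fall of CCL2 is lost with no filter (adjusted p = 0.116) and without si-Ctrl replicate 1 (0.126), 2 (0.0991) or 3 (0.108), si-Elk1 oligo A (0.0898) or C (0.0914), or si-Med23 oligo B (0.0586). The rise of CCL20 is lost with no filter (0.112), without any 1 of the si-Ctrl arrays (adjusted p from 0.0791 to 0.0964) and without any 1 of the si-Elk1 arrays (0.0741 to 0.0984).

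**Figure D2:**
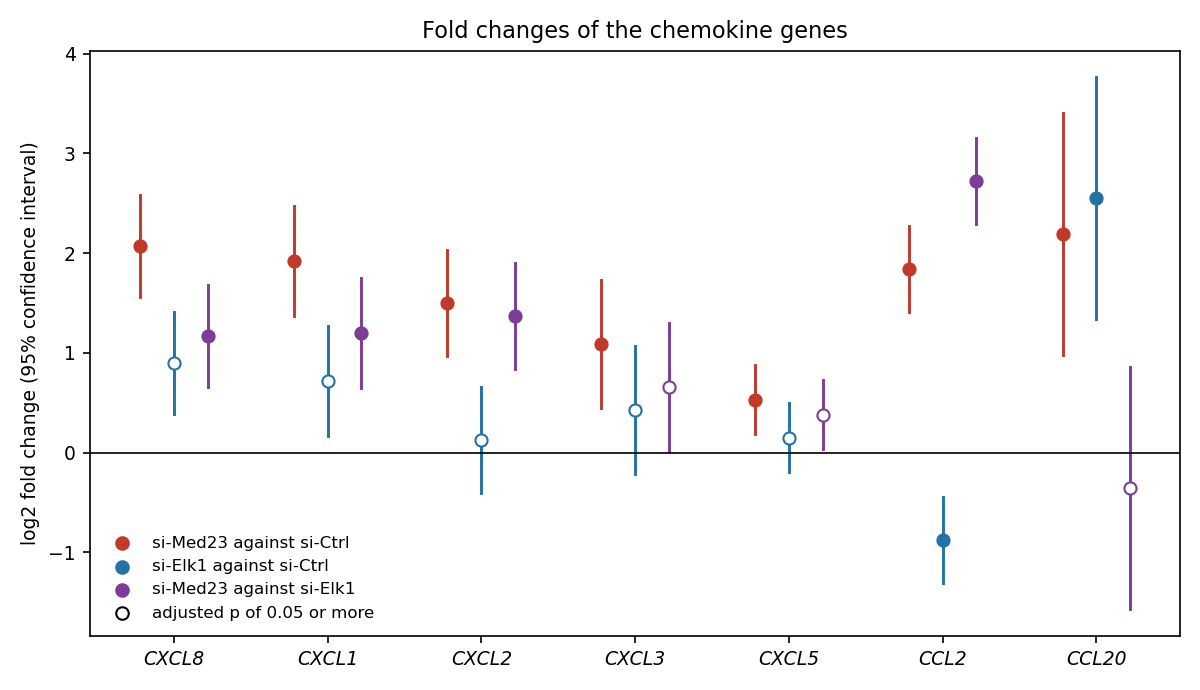
Log2 fold change of each chemokine gene in the 3 comparisons, with its 95% confidence interval from the limma fit of 9 arrays. Filled points have an adjusted p under 0.05. All 7 red points (si-Med23 against si-Ctrl) are filled and above 0, and among the blue points (si-Elk1 against si-Ctrl) only CCL2, at -0.88, and CCL20, at 2.55, are filled.

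The oligos against MED23 did not act alike on all members. Oligo B gave the lowest signal of the 3 for CXCL8, CXCL1, CXCL2, CXCL3, CXCL5 and CCL20, narrowly so for CXCL5 and CCL20, and on the brightest MED23 probe set its signal was also the lowest of the 3. On the other 4 MED23 probe sets, which were dimmer than the filter level on some arrays, its signal was the highest of the 3, so the oligos cannot be ordered by the MED23 left. For CCL2 the order was A, B, C from low to high. CCL20 was highest with oligo A, at 10.29. With 1 array per oligo these are descriptions.

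A difference between members of the same array does not depend on how the array was scaled. Each member was therefore set against the median of the 7 on its array, with an exact permutation test over arrays, two-sided, in which 3 against 3 cannot go below p = 0.1. In si-Elk1 against si-Ctrl, CCL2 moved by -1.07 relative to the members' median and CCL20 by 2.36, and CXCL8 and CXCL1 by 0.71 and 0.53, each at an exact p of 0.1 (0.140 adjusted over the 7 members). CXCL2 reached the same exact p with a shift of only -0.067, so this p does not separate large shifts from small ones. In si-Med23 against si-Ctrl, CXCL5 moved by -1.23 relative to the members' median, CXCL3 by -0.67 and CXCL2 by -0.26, each at an exact p of 0.1 (0.233 adjusted). With each gene averaged over its probe sets, other members stood out: CXCL5 moved by -0.39 (exact p = 0.2), CXCL3 by -0.14 (exact p = 1) and CXCL2 by -0.33 (exact p = 0.5), while CXCL8 (0.90), CXCL1 (0.69) and CCL2 (0.62) were at an exact p of 0.1. The size and exact p of the lag of CXCL5, CXCL3 and CXCL2 in si-Med23 thus depend on how probe sets are combined. CXCL3 has no other probe set, so its value changed only through the members' median. In both settings CXCL5, CXCL3 and CXCL2 lay below CXCL8, CXCL1 and CCL2. Between the knockdowns 6 members were at an exact p of 0.1 (0.117 adjusted): CCL2 differed by 1.16, CCL20 by -1.92, CXCL5 by -1.18, CXCL3 by -0.91, CXCL8 by -0.40 and CXCL1 by -0.36. So CCL2 and CCL20 parted in opposite directions within the si-Elk1 arrays whatever factor an array is scaled by, at the smallest p the design allows.

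Other probe sets of 3 genes gave a second reading. The second CXCL8 probe set had log2 fold changes of 2.19 in si-Med23 and 0.89 in si-Elk1, close to the main one. For CXCL5 the second probe set moved more than the brightest. It was 11.48, 11.22 and 11.74 in si-Ctrl, 12.56, 12.48 and 12.75 in si-Med23 and 11.69, 11.95 and 11.24 in si-Elk1. Its log2 fold change in si-Med23 was 1.12 (limma, adjusted p = 0.038 over all probe sets), against 0.53 for the brightest, so that the place of CXCL5 as the smallest rise rests on the choice of probe set, and another CXCL5 probe set, dimmer than the filter level on 2 arrays, gave 0.86. The remaining CXCL2 probe sets were below the filter level on 8 and on all 9 arrays and gave -0.72 and 1.91, so CXCL2 rests on 1 probe set. The probe sets that represent CXCL8, CXCL2, CXCL5 and CCL2 are of the types that can match more than 1 transcript, and CXCL1, CXCL2 and CXCL3 are known to be closely alike in sequence, so that cross-hybridization among these 3 could not be separated.

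Over the 9 arrays the members fell into nearer and farther pairs. Likeness is given as the root mean square difference of log2 signals, each gene centred on its own mean. CXCL8 and CXCL1 were nearest, at 0.164, and CCL2 and CCL20 farthest apart, at 1.70. Outside the 7, the genes nearest to CXCL8 were SOD2, the mitochondrial superoxide dismutase (0.17), and C1R, a complement protease (0.24). CXCL1 was nearest to COXFA4L3 (0.17) and SOD2 (0.18). CXCL2 was nearest to AGFG2 and PTGES, a prostaglandin E synthase (0.17 each), CXCL3 to MRPS6 and RBBP6 (0.20 each), and CXCL5 to TWNK and DOT1L (0.08 each). The 2 CC chemokines had no gene as near, at 0.31 (OLFML3) and 0.41 (HAS3, a hyaluronan synthase) for CCL2, and 0.57 (IL1R2) and 0.67 (SERPINA3) for CCL20. These distances are over 9 arrays of 3 groups and shrink for a gene that varies little. The own root mean square of CXCL5 was 0.26 and that of CCL20 was 1.29.

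The 5 CXC members lie in 1 cluster on chromosome 4, in the RefSeq order CXCL8, CXCL6, PF4V1, CXCL1, PF4, PPBP, CXCL5, CXCL3, CXCL2. Of these 9 genes PF4V1 (log2 fold change -1.72 in si-Med23) and PPBP (2.20) were under the filter level and not tested. The other 7 passed the filter, and all 7 rose in si-Med23, beside 20.3% of all genes. They include the 5 members described above, so that the count is not separate from theirs. The 2 of the 7 that are no members were CXCL6, a neutrophil attractant, and PF4, platelet factor 4. CXCL6 was 6.18, 5.88 and 5.95 in si-Ctrl, 9.20, 8.50 and 8.72 in si-Med23 and 5.79, 6.55 and 6.79 in si-Elk1. It was near or below the filter level outside si-Med23, and its log2 fold change there was 2.80 ± 0.27 (limma, adjusted p = 0.00184). In si-Elk1, where 3.07% of all genes rose, PF4 was the only gene of the cluster to pass, at 0.71 (limma, adjusted p = 0.0454). In si-Med23 PF4 stood at 0.87. Among the 5 protein-coding genes on each side of the cluster, 6 passed the filter. Of these, 2 fell in si-Med23, beside 19.5% of all genes, and 4 did not pass the test. Those that fell were the epidermal growth factor family ligands EREG (log2 fold change -1.99 ± 0.29, limma adjusted p = 0.00252) and BTC (-1.64 ± 0.23, limma adjusted p = 0.00245). They were chosen after their values were seen.

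**Figure D3:**
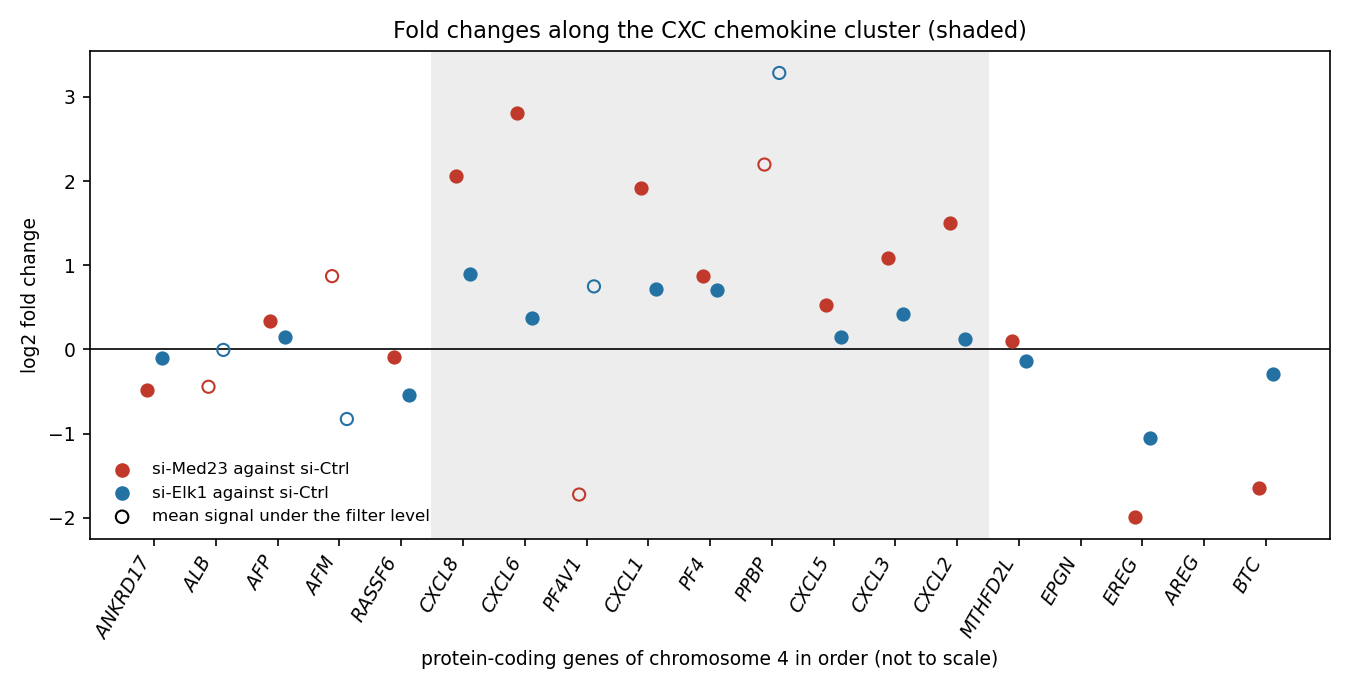
Log2 fold change against si-Ctrl of the genes in and beside the CXC chemokine cluster (shaded), in their order along chromosome 4 and not to scale. Hollow points have a mean signal under the filter level, and a gene with no point has no probe set used here. The filled red points (si-Med23) in the shaded stretch all lie above 0, from 0.53 (CXCL5) to 2.80 (CXCL6), and EREG and BTC beside it lie at -1.99 and -1.64.

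The other chemokine ligands were mostly too dim to test. Of 34 listed, 31 had a probe set of their own and 9 passed the filter. In si-Med23, 5 of the 9 rose and 1 fell, beside 20.3% and 19.5% of all genes, with a median of 0.87. Besides CXCL6 and PF4 the rises were CCL26, an eotaxin (1.19, limma adjusted p = 0.00568), CX3CL1, the ligand that is bound to the membrane (0.96, adjusted p = 0.0234), and CXCL16 (0.57, adjusted p = 0.0227). CXCL12, which is made constitutively and binds CXCR4, fell (log2 fold change -1.12, limma adjusted p = 0.0456). In si-Elk1 PF4 alone passed, beside 3.07% of all genes that rose and 1.19% that fell. CXCL9, CXCL10 and CXCL11, the interferon-induced ligands of CXCR3, were under the filter level.

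Of the 23 chemokine receptors listed, 21 were on the array and 5 passed the filter. CXCR1, CXCR2, CCR2 and CCR6, the receptors of the 7 ligands, were all under it. ACKR3, an atypical receptor that scavenges CXCL12, rose in both knockdowns, by 1.88 ± 0.36 in si-Med23 (limma, adjusted p = 0.00548) and 2.32 ± 0.36 in si-Elk1 (adjusted p = 0.0156). CXCR4, the signalling receptor of CXCL12, fell in si-Elk1 (log2 fold change -1.23 ± 0.28, limma adjusted p = 0.050, just under the threshold), was 0.15 in si-Med23, and differed by 1.37 between the knockdowns (adjusted p = 0.0155). The other 3 receptors passed in no comparison with si-Ctrl.

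The list of chemokine inducers with their receptors and adaptors held 22 genes, the decoy receptor IL1R2 among them, and 14 passed the filter. Of these 6 rose and 2 fell in si-Med23, beside 20.3% and 19.5% of all genes, with a median of 0.44. IL6, itself an NF-kB target, rose by 2.10 ± 0.36 (limma, adjusted p = 0.00398), TNFRSF1A, the main receptor of tumour necrosis factor, by 1.06 (0.00208), and IL6R by 0.83 (0.00768). IL1A, an alarmin cytokine, and IL6ST fell (log2 fold change -1.51 and -1.52, limma adjusted p = 0.00728 and 0.0110). IL6ST was named after its value was seen, and TNF, IL17A and TLR4 were under the filter level. In si-Elk1 only IL1R2, the decoy receptor of interleukin-1, passed, with a rise of 2.32 (limma, adjusted p = 0.0313), beside 3.07% of all genes. It was also among the 6 that rose in si-Med23, by 1.64 (limma, adjusted p = 0.022). IL1R2 was also the gene nearest to CCL20 over the arrays. Both genes were under the filter level on si-Ctrl replicate 2. IL1R2 was 5.10 there, beside 7.05 and 6.95 on the other si-Ctrl arrays, which adds to the size of its rises.

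Of 21 NF-kB subunits and regulators 18 were on the array and passed the filter, of which 6 rose and 3 fell in si-Med23, beside 20.3% and 19.5% of all genes. Among those that rose were TNFAIP3 (A20), an inhibitor of the pathway, at 1.42 (limma, adjusted p = 0.00517), NFKBIA, which holds NF-kB in the cytoplasm, at 0.83 (0.00603), TNIP1, a partner of TNFAIP3, at 0.75 (0.00591), and the subunit RELA at 0.45 (0.0264). Those that fell were CHUK, the kinase IKK-alpha (log2 fold change -1.53, adjusted p = 0.00641), and the subunits REL (-1.51, 0.00743) and NFKB2 (-0.41, 0.0315). The inhibitors NFKBIE (0.09), NFKBIB (0.02) and CYLD (-0.25) did not pass, and RELA, REL, NFKB2 and these 3 were named after their values were seen. The list's median was 0.14. In si-Elk1 limma called 0 of the 18, beside 3.07% of all genes that rose and 1.19% that fell. An unadjusted limma p under 0.05 was found for 3 of the 18 and for 3162 of the 12616 genes.

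Of 11 AP-1 and C/EBP factors that passed the filter, 4 rose and 1 fell in si-Med23, beside 20.3% and 19.5% of all genes. CEBPD, an acute-phase factor, rose by 1.65 (limma, adjusted p = 0.00184) and also by 0.93 in si-Elk1 (0.0387). FOSL2 and JUNB, AP-1 subunits, rose by 1.03 (0.00184) and 1.15 (0.00764) in si-Med23. CEBPG fell in both, at -0.62 (0.00456) and -0.48 (0.050, just under the threshold). Of 11 factors of AU-rich element decay and stability, 3 rose and 3 fell in si-Med23, a share near that of all genes (20.3% and 19.5%) in both directions. Among them were ELAVL1 (HuR, which stabilises such messages) at 0.48 (limma, adjusted p = 0.0157), TIA1, which represses their translation, at -1.46 (0.00605), and the deadenylase subunits CNOT1 and CNOT7 at -0.78 (0.0173) and -0.57 (0.0173). ZFP36 (tristetraprolin), which destabilises them, rose in both knockdowns, by 0.67 in si-Med23 (limma, adjusted p = 0.0219) and by 1.00 in si-Elk1 (0.0262). On the poly-A scaling a rise of a listed gene under 1.61 in si-Med23 would turn to a negative value.

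**Figure D4:**
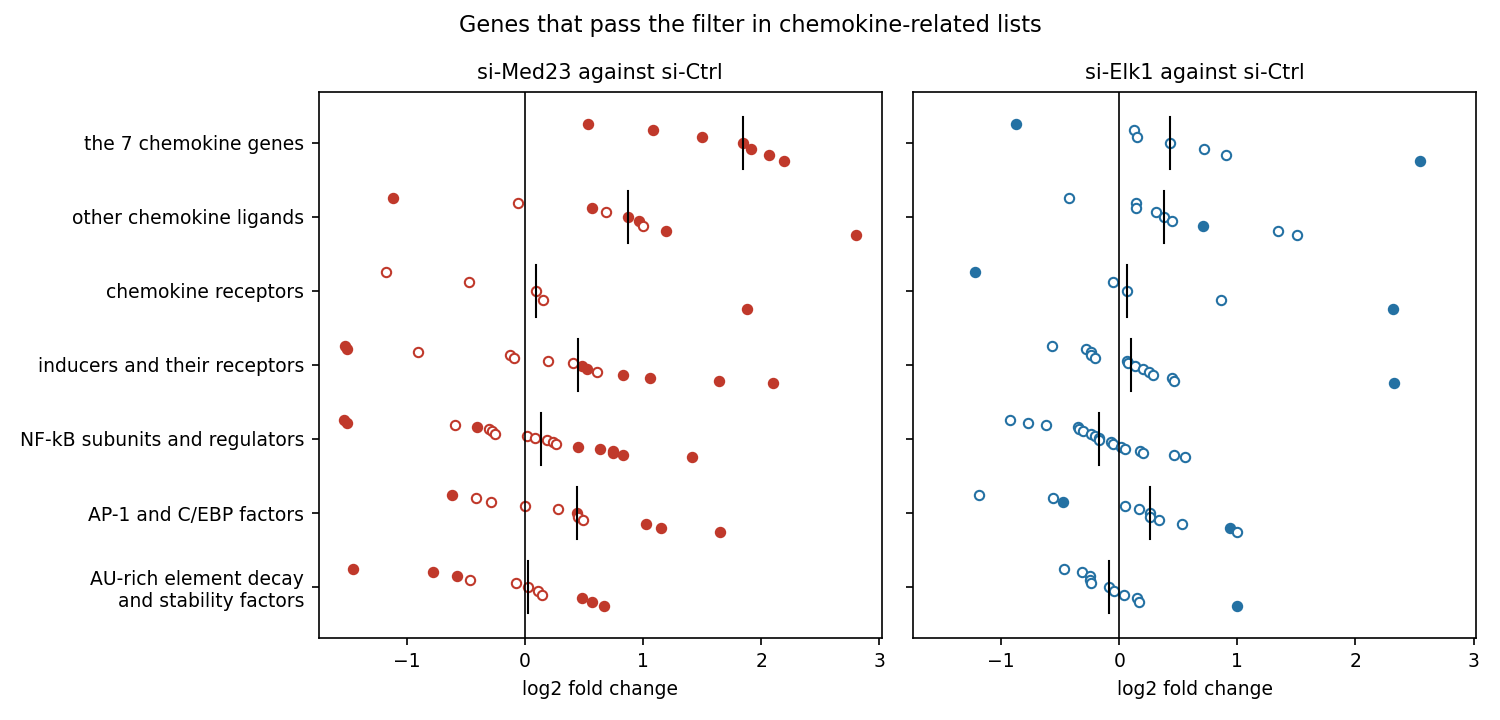
Log2 fold changes of the genes that pass the filter in the 7 chemokine genes and the 6 related lists, in si-Med23 (left) and si-Elk1 (right) against si-Ctrl. Each point is 1 gene, filled where the adjusted p is under 0.05, and the vertical tick is the list's median. The 7 chemokine genes have a median of 1.84 on the left and 0.43 on the right, and the medians of the other lists on the left run from 0.03 to 0.87.

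Genes that hold the promoter sequence shown above moved in both directions. Of the genes with GGAATTTCC in the promoter 88 were on the array and 64 passed the filter. In si-Med23, 20 of them rose (31.25%) and 17 fell. Without the 5 members, 15 of 59 rose (25.424%) and 17 fell, with a median of 0.03, against 20.3% and 19.5% of all genes. CXCL6, NFKBIA and ICAM1, an adhesion molecule for leukocytes (2.69, limma adjusted p = 0.0104, named after its value was seen), hold it. REL, the lowest of the 64 at -1.51 (limma, adjusted p = 0.00743, also named after its value was seen), holds it as well. The promoters of SOD2, TNFAIP3, IL6 and CCL26, which rose in si-Med23, do not in this window. In si-Elk1, 1 of the 64 rose (1.562%) and 0 fell, beside 3.07% and 1.19% of all genes.

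Markers of other cell types were mostly dim. The epithelial markers, 7 of 7 above the filter level with KRT8, KRT18 and KRT7 among them, match the labelled line, and their summed signal was 63088 to 70122 in si-Ctrl, 85090 to 115240 in si-Med23 and 65959 to 84941 in si-Elk1. Of 9 haematopoietic markers on the array 5 had a mean under the filter level, including PTPRC and LYZ, and the summed signal was 750 to 997, 1067 to 1462 and 1365 to 1544 in the same order. CD14, the lipopolysaccharide co-receptor, rose in both knockdowns (1.65 and 1.77, limma adjusted p = 0.00276 and 0.0113). Of 6 endothelial markers 4 were under the level, including CDH5 and VWF, and the summed signal was 313 to 410, 261 to 364 and 285 to 518. Of 7 fibroblast markers 5 were under it, including DCN and PDGFRA, and the summed signal was 976 to 1030, 2017 to 2958 and 1573 to 2017. COL1A1 rose in both (1.76 and 0.95, adjusted p = 0.00184 and 0.0318). Other markers of these lists passed the filter: CD3E, ITGAM and HBB of blood, PECAM1 and ROBO4 of endothelium, and THY1 of fibroblasts. Of these THY1 rose in si-Elk1 (0.65, limma adjusted p = 0.0464), CD3E was lower in si-Med23 than in si-Elk1 (-2.49, adjusted p = 0.0365), and no other comparison of the 6 passed. The part of these markers in the chemokine result was not tested.

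The plot of scalings gives the 7 log2 fold changes under 5 treatments of the arrays. In si-Med23 against si-Ctrl the 7 members had a median of 1.84 as deposited. Centring each array on its median raised each value by 0.23, and scaling on the hybridization controls lowered it by 0.50, with CXCL3 (0.59, adjusted p = 0.137) and CXCL5 (0.032) no longer called. On the poly-A spikes the median of all 12616 genes was -1.52, and the members stood at 0.58 (CCL20), 0.46 (CXCL8), 0.31 (CXCL1), 0.23 (CCL2), -0.11 (CXCL2), -0.52 (CXCL3) and -1.08 (CXCL5), of which only the fall of CXCL5 passed (limma, adjusted p = 0.000747). In si-Elk1 CCL2 fell and CCL20 was higher under all 5, though CCL20 missed the threshold on hybridization controls (adjusted p = 0.0549). CCL2 was higher in si-Med23 than in si-Elk1 under all 5, down to 1.75 on the poly-A spikes (limma, adjusted p = 0.00109). CCL20 was lower in si-Med23 than in si-Elk1 on the poly-A spikes, at -1.33 (limma, adjusted p = 0.0397), a difference of -0.36 as deposited.

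**Figure D5:**
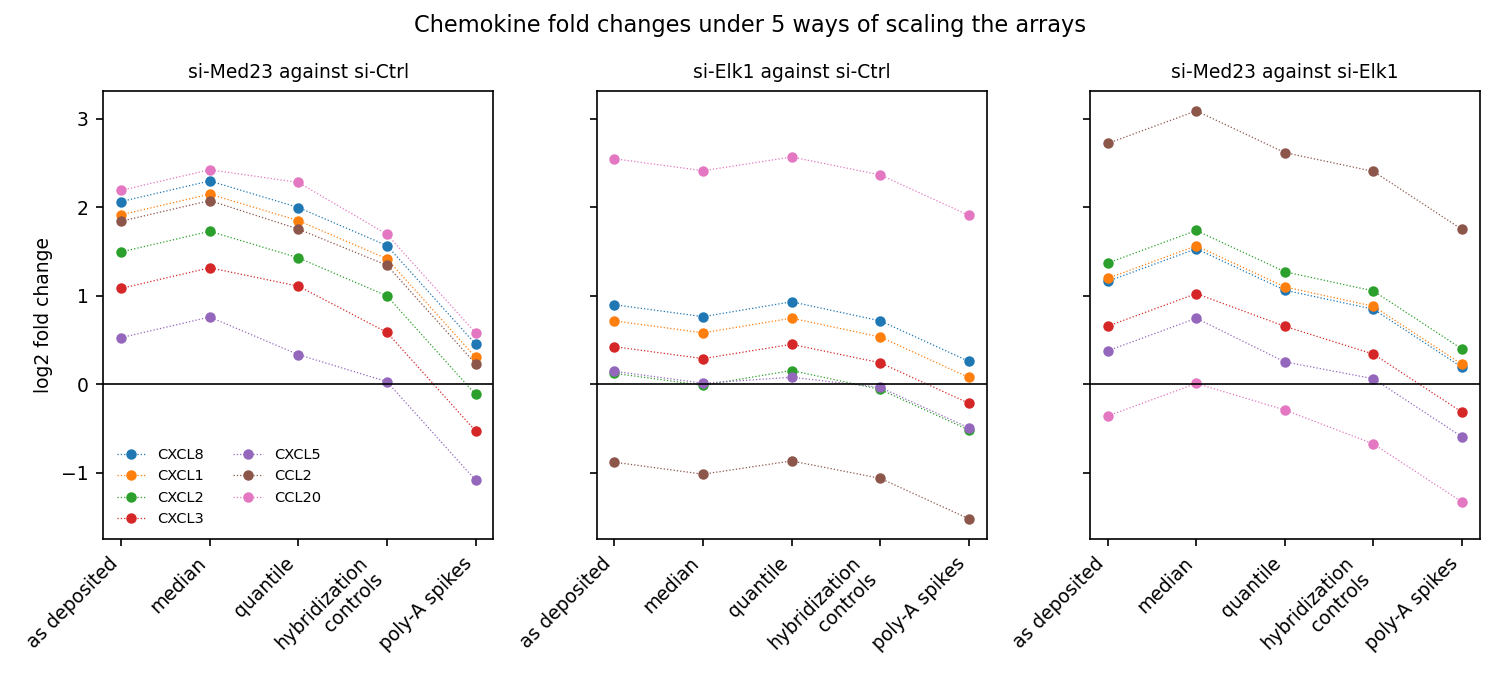
Log2 fold changes of the 7 chemokine genes in the 3 comparisons (panels), as deposited and under 4 other scalings of the arrays. Dotted lines join the values of 1 gene. Centring on the median and scaling on either set of controls move all genes of a panel alike, so only quantile normalization can change their order. The level drops on the poly-A spikes, where CCL20 in si-Med23 against si-Ctrl stands at 0.58.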

How the data were processed

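The deposited files hold 1 linear-scale intensity for each probe set and array. RMA and MAS5 are named in the submitters' processing notes, with no role or version. Genome build: not given in the sources used here. The 2% trimmed mean of each array was 500 in the deposited values, so a change in total messenger RNA cannot be seen in them. No detection calls or scan dates were used here, and no identical arrays were found.

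Signals were taken as log2(value + 1). Gene names came from the platform annotation (41091 with 1 gene, 1801 with several, none of which names a member), and 41043 identifiers were found in RefSeq. Contrasts came from 1 fit of 9 arrays in limma 3.58.1 (R 4.3.3, lmFit and eBayes, two-sided, no block). The array gives no counts, so precision is limited by the number of arrays. Promoters were aligned with Biopython 1.88.

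The members and gene lists were chosen with earlier results of these data known. Named genes were those with the smallest p in each list (up to 4 in si-Med23 and 2 in the other contrasts), the 2 nearest to each member over the arrays, and those said to be chosen otherwise.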

Additional observations from a re-analysis of the deposited data

How the results depend on the processing

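Values are numbers of members called, or log2 fold changes, and no cause of a change was tested unless stated. In si-Med23 against si-Ctrl (7 higher), 5 to 7 rose on leaving out 1 array, 4 at an adjusted p under 0.01, 3 without the _x_at and _s_at probe sets (only 4 members are then tested), and 0 on the poly-A spikes, where 1 fell; there CXCL2 (-0.11), CXCL3 (-0.52) and CXCL5 (-1.08) reversed. In si-Elk1 against si-Ctrl (1 higher, 1 lower) the count of rises was 0 with no filter, on the hybridization controls and at an adjusted p under 0.01, 2 with a filter at the 70th percentile, with signals raised to the filter level, with array weights and at an adjusted p under 0.1, and 3 with only the 6 arrays compared and with a trended, robust prior; leaving out 1 array gave 0 to 3 rises and 0 to 1 falls. The fall was lost (0) with no filter, the mean of all probe sets, only the 6 arrays and an adjusted p under 0.01, and CCL2 was not tested without _x_at and _s_at probe sets, since its 1 probe set is of that kind (0 falls). Uncalled values reversed for CXCL2 (-0.16 with the mean of all probe sets, -0.0094 on median centring, -0.51 on the poly-A spikes, -0.056 on the hybridization controls), CXCL3 (-0.21 on the spikes) and CXCL5 (-0.11 without _x_at and _s_at probe sets, -0.49 on the spikes, -0.033 on the hybridization controls). In si-Med23 against si-Elk1 (4 higher), 3 to 5 were higher on leaving out 1 array, 2 at an adjusted p under 0.01, 1 without _x_at and _s_at probe sets, and 1 on the spikes, where 2 were lower (CXCL5, reversed at -0.59, and CCL20 at -1.33) and CXCL3 (-0.31) reversed without passing; CCL20 did on median centring (0.012). Within arrays the differences of CXCL8 (0.32), CXCL1 (0.28) and CXCL2 (0.14) reversed with the mean of all probe sets. The replicate numbers do not pair the arrays: same-numbered deviations correlated at -0.176 to 0.046. With the number as a replicate block, 0 members rose and 0 fell in si-Elk1 against si-Ctrl, and MED23 stayed at -2.46 with an adjusted p of 0.0882. Leaving out 1 array gave -2.65 to -2.21 for MED23, with the call lost without any 1 si-Ctrl array or oligo B (adjusted p from 0.0511 to 0.0842), and -2.31 to -1.93 for ELK1, which passed when adjusted over the genes that pass the filter (-2.07, limma adjusted p = 0.00684). Of the member values over the alternatives in si-Med23 against si-Ctrl, 140 kept their direction and side of the threshold, 15 lost the call and 3 reversed. In si-Elk1 against si-Ctrl 122 kept both, 19 lost the call, 9 gained it and 8 reversed. Between the knockdowns 144 kept both, 5 lost the call, 6 gained it and 3 reversed. Values kept include uncalled ones, and leaving out an array outside a comparison cannot change its log2 fold change. Dim probe sets and 3 arrays a group limit all values.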
